A study of Mus musculus with 60 samples.

Results

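The S100 proteins are small calcium-binding proteins, and 8 of their genes were followed here across Kupffer cell preparations of 15 mice: S100a8, S100a9, S100a4, S100a6, S100a10, S100a11, S100a1 and S100a13. They were chosen by symbol with their measured counts in these mice already known, and the measure used for the choice is not recorded. They are 8 of the 24411 genes of the table and 8 of its 17 rows with an S100 family name, and they are the 8 family rows that had counts in all 15 libraries. All 8 passed the filter on low counts. At the edge of the rows with counts in all 15 libraries, S100a11 lay just inside, with 761 counts in all. Just outside lay S100a16, with 728 counts in 13 libraries, and it too passed the filter. Since the genes were chosen with their values known, the tests below describe them and are no independent evidence.

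The study compared Kupffer cells, the macrophages that reside in the liver, after acute injury with and without Trem1, an amplifier of myeloid inflammatory signals. It holds 5 Trem1-deficient mice given carbon tetrachloride (CCl4), 5 wild-type mice given CCl4 and 5 wild-type mice given corn oil. The strain was C57BL/6J, the age 8 weeks and the sex male, as labelled; CCl4, which injures hepatocytes, was given once at 2 µl per g body weight in corn oil, and cells were taken 12 h after either injection. The Trem1-deficient mice lack the gene in the whole animal as far as the labels say, and no Trem1-deficient mice given oil are among the groups. Cells binding CD11b beads were removed before F4/80-binding cells were collected, and CD11b is a surface protein of neutrophils and monocytes.

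S100 proteins pair up, bind calcium through EF-hand motifs and then attach to target proteins. Inside cells they act on the cytoskeleton, on membranes through annexins and on calcium handling. S100a8 and S100a9, which together form calprotectin, fill the cytosol of neutrophils and monocytes and act as alarm signals on Toll-like receptor 4 and on the receptor Ager once released. In the liver S100a4 and S100a6 are known from infiltrating myeloid cells and from stellate and bile duct cells.

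The libraries held 812320 to 2593004 gene counts, and the members took 0.0397 to 1.201% of them. Trem1 lay at 1.15 to 10.7 CPM in the Trem1-deficient CCl4 libraries, against 109 to 566 CPM in the wild-type CCl4 and 32.4 to 107 CPM in the wild-type oil libraries, where CPM is a gene's count scaled to the depth of its library, here with TMM factors. The label Kupffer cells was checked against 12 markers: their summed level was 44071 to 57313 CPM in Trem1-deficient CCl4, 5098 to 20920 CPM in wild-type CCl4 and 31685 to 62658 CPM in wild-type oil libraries, and 10 of them were higher in Trem1-deficient than in wild-type CCl4 mice. The summed level of 11 hepatocyte markers in the table was 1619 to 17517, 13450 to 47690 and 1760 to 11388 CPM in the same order of groups, and 4 of these genes were higher in wild-type mice after CCl4 than after oil. Tested were 8 of 8 markers of sinusoidal endothelium, 3 of 7 of stellate cells and 3 of 7 of T and NK cells. Of B cells 2 of 5 were tested, and of dendritic cells 3 of 6. Of these tested markers 0 passed in any comparison, and the untested ones leave a change in those cells open. The index numbers in the labels leave a remainder of 3 or 4 when divided by 12 and so form 2 series. In the first (Trem1-deficient mice 1 and 2 and all oil mice) Xist had 72 to 1552 counts and Y-linked genes 0 to 7, and in the second (Trem1-deficient mice 3 to 5 and all wild-type CCl4 mice) Xist had 1 to 31 counts and Y-linked genes 134 to 425, although every mouse is labelled male. CCl4 and oil in wild type therefore cannot be told apart from index series and sex-linked transcripts, and values within a series are given below for the members between the CCl4 groups. In bulk RNA, fewer cells of a type and less RNA per cell cannot be told apart.

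All 8 genes lie on mouse chromosome 3 (GRCm38, GENCODE M21), in 2 groups. S100a1, S100a13, S100a4, S100a6, S100a8 and S100a9 lie within 184.7 kb, and S100a11 and S100a10 lie 2.82 Mb further on, 28.8 kb apart. S100a4 (ENSMUSG00000001020.8, 90603771 to 90606045, plus strand) and S100a6 (ENSMUSG00000001025.8, 90612882 to 90624181, plus strand) are close neighbours with S100a5 between them. S100a8 (ENSMUSG00000056054.9, 90668978 to 90670035, plus strand) and S100a9 (ENSMUSG00000056071.12, 90692632 to 90695721, minus strand) face each other with 22.6 kb between their ends. S100a1 and S100a13 start 43 bases apart and run in opposite directions. S100a4 is overlapped on the same strand by the gene model Gm42674, and S100a11 has a processed pseudogene, S100a11-ps. Reads that fit both genes of such a pair could have been counted for either or left out. The counting was not stated in enough detail to tell which.

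The promoter windows of 4 genes are shown, since these had the highest mean levels in wild-type CCl4 libraries. Each runs from 250 bases before the annotated start to 50 bases from it (RefSeq, GRCm38.p6), 5′ to 3′ on the gene's strand, with motif matches in capitals.
S100a8: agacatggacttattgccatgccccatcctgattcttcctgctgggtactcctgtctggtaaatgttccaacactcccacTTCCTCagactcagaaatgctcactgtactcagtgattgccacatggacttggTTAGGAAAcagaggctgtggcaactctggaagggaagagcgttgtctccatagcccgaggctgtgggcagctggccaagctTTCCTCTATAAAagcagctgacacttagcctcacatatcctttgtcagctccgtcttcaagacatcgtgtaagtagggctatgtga
S100a9: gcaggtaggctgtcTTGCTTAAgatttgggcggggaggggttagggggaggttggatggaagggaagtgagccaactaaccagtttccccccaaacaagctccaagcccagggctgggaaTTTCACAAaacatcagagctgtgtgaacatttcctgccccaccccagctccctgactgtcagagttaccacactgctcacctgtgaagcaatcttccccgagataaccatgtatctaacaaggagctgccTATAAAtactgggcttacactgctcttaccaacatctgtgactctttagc
S100a4: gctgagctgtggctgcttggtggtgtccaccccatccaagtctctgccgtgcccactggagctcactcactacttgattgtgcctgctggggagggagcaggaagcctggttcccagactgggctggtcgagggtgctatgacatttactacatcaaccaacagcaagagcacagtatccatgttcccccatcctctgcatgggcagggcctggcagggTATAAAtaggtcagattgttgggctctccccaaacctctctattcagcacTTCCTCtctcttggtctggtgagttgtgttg
S100a6: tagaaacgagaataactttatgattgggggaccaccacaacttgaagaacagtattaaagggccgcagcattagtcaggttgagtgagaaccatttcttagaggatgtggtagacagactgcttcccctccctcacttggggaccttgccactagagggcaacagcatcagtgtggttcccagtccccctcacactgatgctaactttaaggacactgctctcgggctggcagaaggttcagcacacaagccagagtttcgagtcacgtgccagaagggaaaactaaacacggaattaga
Windows were found for 7 of the 8 members and searched on both strands for 4 motifs: TTNNGNAA of C/EBP factors, GAGGAA as the core of PU.1, TGANTCA of AP-1 and the TATA box TATAAA. C/EBP factors and PU.1 are known regulators of myeloid genes. The S100a8 window held 1 C/EBP match at -117, 2 PU.1 matches at -170 and -36 and a TATA box at -30, counted in bases from the start. The S100a9 window held 2 C/EBP matches at -236 and -130 and a TATA box at 0, the annotated start itself. The S100a4 window held a TATA box at -31 and 1 PU.1 match at 19, and the S100a6 window held none of the 4 motifs. Outside the printed windows, S100a11 held 2 AP-1 matches at -136 and -38 and 1 PU.1 match at -153, and those of S100a1 and S100a13 held none. No matches of different motifs overlapped. Of all 32851 promoter windows of this length, 40.7% held the C/EBP letters, 28.3% the PU.1, 13.6% the TATA and 7.81% the AP-1 letters, so single matches are common, and a match is a string of letters and not a measured site.

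After CCl4, 6 of the 8 S100 transcripts had lower mean levels in Trem1-deficient than in wild-type mice, and of these S100a4 and S100a6 passed the test. The same 6 had higher mean levels in wild-type mice given CCl4 than in those given oil, and 5 of them, all but S100a8, passed the test. S100a8, S100a1 and S100a13 passed in no comparison. By edgeR's quasi-likelihood test on the whole table (Benjamini-Hochberg adjusted p under 0.05 over 9001 genes), 0 members were higher and 2 lower in Trem1-deficient CCl4 against wild-type CCl4 mice, where 0.778% of all genes were higher and 1.28% lower. In wild-type CCl4 against oil 5 members were higher and 0 lower, where 3.04% of all genes were higher and 2.09% lower. In Trem1-deficient CCl4 against wild-type oil 0 members passed, 1 member had an unadjusted p under 0.05 and DESeq2 called 0, where 0.178% of all genes were higher and 0.0555% lower. The members' median log2 fold changes were -2.21, 3.06 and 0.37 in these 3 comparisons, and those of all genes tested were -0.03, 0.06 and 0.02. The comparisons share mice, so their values stand side by side and are not independent of each other.

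**Figure D1:**
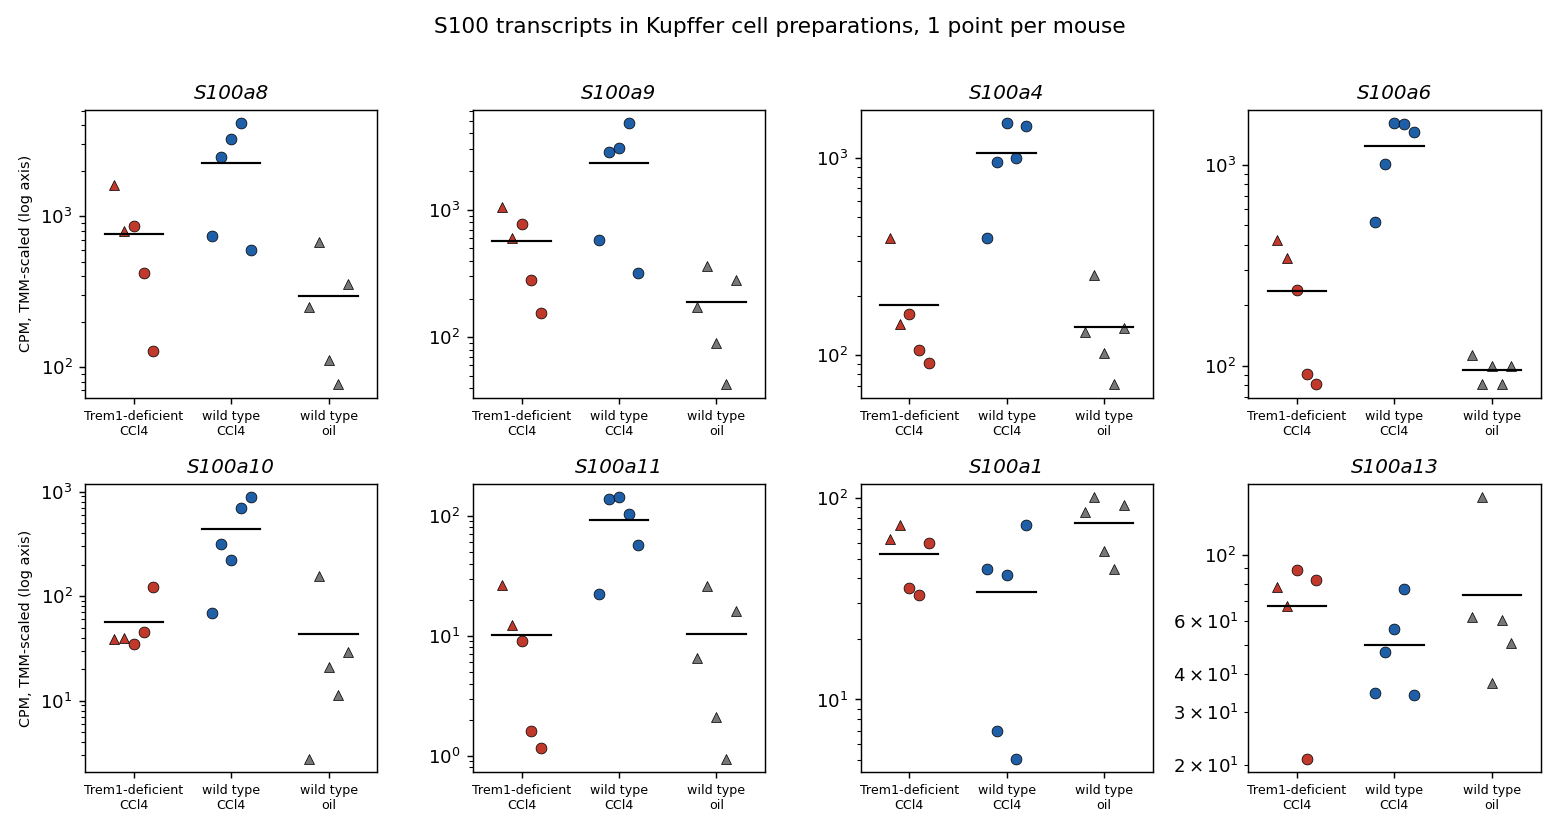
Level of each member in every mouse, in TMM-scaled CPM on log axes, for Trem1-deficient CCl4, wild-type CCl4 and wild-type oil mice from left to right. Bars are group means (n = 5), triangles mark libraries of the index series with high Xist and circles those of the other. On this scale S100a4 and S100a6 separate the 5 Trem1-deficient CCl4 from the 5 wild-type CCl4 mice without overlap, and the other 6 do not. By library total alone, Trem1-deficient mouse 1 would lie above wild-type CCl4 mouse 1 for both.

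S100a8 and S100a9 encode the chains of calprotectin. S100a8 stood at 1621, 793, 868, 421 and 128 CPM in Trem1-deficient CCl4 mice 1 to 5, against 744, 2479, 3273, 4155 and 597 CPM in wild-type CCl4 mice 1 to 5 and 250, 675, 111, 76.6 and 357 CPM in wild-type oil mice 1 to 5. S100a9 stood at 1053, 603, 777, 282 and 155 CPM in Trem1-deficient CCl4 mice, against 582, 2843, 3082, 4809 and 320 CPM in wild-type CCl4 mice and 172, 364, 90.8, 42.6 and 279 CPM in wild-type oil mice. Wild-type CCl4 mice 2, 3 and 4 were high for both chains, while mice 1 and 5 lay inside the range of the Trem1-deficient mice, so these groups overlapped. The wild-type CCl4 and oil groups overlapped only through wild-type CCl4 mouse 5, which lay below oil mouse 2 for both.

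The log2 fold change between Trem1-deficient and wild-type CCl4 mice was -1.55 ± 0.76 (SE; edgeR adjusted p = 0.356) for S100a8 and -2.02 ± 0.79 (adjusted p = 0.240) for S100a9, neither past the threshold. Within the index series shared by Trem1-deficient mice 3 to 5 and the wild-type CCl4 mice they were -2.23 (adjusted p = 0.242) and -2.50 (adjusted p = 0.356). Between wild-type CCl4 and oil mice S100a9 was higher by 3.62 ± 0.85 (edgeR adjusted p = 0.0265), and S100a8 by 2.94 ± 0.80 missed the threshold (adjusted p = 0.0537). The S100a9 call was lost, at adjusted p of 0.0507 to 0.0774 in edgeR with log2 fold changes of 3.17 to 3.80, when wild-type CCl4 mouse 3 or 4 or oil mouse 1, 3, 4 or 5 was left out. S100a8 was called, at adjusted p of 0.0263 to 0.0378, without wild-type CCl4 mouse 1 or 5 or without oil mouse 2. The 2 chains lie on either side of the threshold with changes of 2.94 and 3.62. The difference between these changes, which come from the same mice, was not tested.

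The chains kept a narrow ratio while their levels varied widely. The count ratio of S100a9 to S100a8 was 0.837 ± 0.231 in Trem1-deficient CCl4, 0.913 ± 0.262 in wild-type CCl4 and 0.676 ± 0.126 in wild-type oil mice (SD, n = 5 each). Across all 15 mice it ran between 0.537 and 1.21, while S100a8 alone varied 12.6-fold, 6.96-fold and 8.81-fold within the same groups in the same order. S100a9 was the gene most like S100a8 of the 5931 genes with a mean of at least 20 CPM, by deviations from group means of log2(CPM + 1) over 15 mice (Pearson r = 0.96). Next for S100a8 came S100a11 (0.91) and Hdc (0.89), and for S100a9 Hdc (0.93) and Cxcr2 (0.86); Hdc makes histamine, and Cxcr2 is the chemokine receptor that draws neutrophils to tissue. These correlations are descriptions over mice whose genes share a library.

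Neutrophil transcripts moved with both chains. The summed level of 13 neutrophil markers in the table, none an S100 gene, was 109 to 587 CPM in Trem1-deficient CCl4, 382 to 3307 CPM in wild-type CCl4 and 116 to 714 CPM in wild-type oil libraries. Of the 8 markers tested, 2 were lower in Trem1-deficient than in wild-type CCl4 mice and 3 were higher in wild-type mice after CCl4 than after oil. Elane and Mpo, which encode granule enzymes made early in neutrophil development, were at 0 in all Trem1-deficient CCl4 libraries, and Elane was at 0 in all wild-type CCl4 libraries. Within groups, deviations of this sum had r = 0.89 with those of S100a8 and 0.90 with those of S100a9, against 0.34 and 0.35 for the sum of 11 monocyte markers. That monocyte sum was 638 to 1226 CPM in Trem1-deficient CCl4, 2363 to 3755 CPM in wild-type CCl4 and 528 to 1186 CPM in wild-type oil libraries; 2 of its 11 genes were lower in the first comparison and 5 higher in the second. The part of these cells in the S100 differences was not tested.

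**Figure D2:**
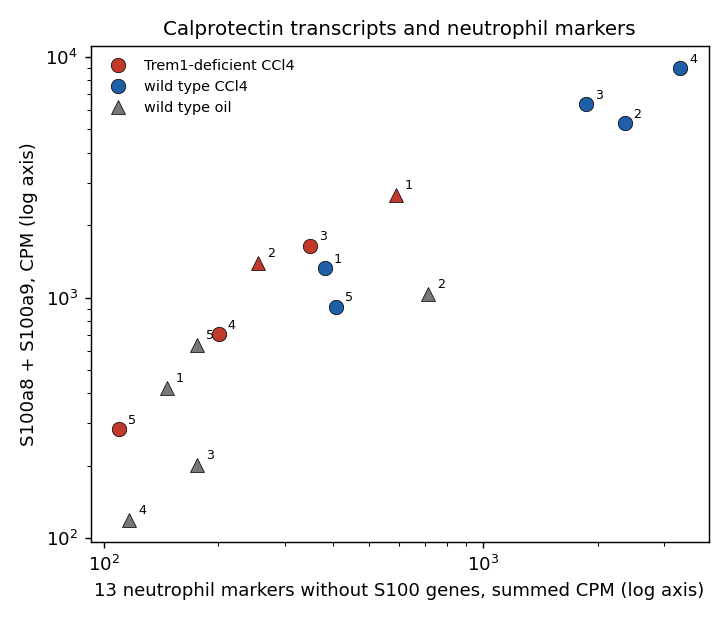
Summed level of S100a8 and S100a9 against the summed level of 13 neutrophil markers without S100 genes, both in CPM on log axes, 1 point per mouse with its number; red marks Trem1-deficient CCl4, blue wild-type CCl4 and grey wild-type oil mice, triangles the index series with high Xist. Wild-type CCl4 mice 2, 3 and 4 stand apart at the top of both axes, and mice 1 and 5 of that group lie among the Trem1-deficient mice.

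S100a4, which binds the heavy chain of non-muscle myosin, was lower by TMM-scaled CPM in every Trem1-deficient CCl4 mouse than in any wild-type CCl4 mouse. It stood at 390, 144, 162, 106 and 90.6 CPM in Trem1-deficient CCl4 mice 1 to 5, against 394, 948, 1499, 995 and 1455 CPM in wild-type CCl4 mice 1 to 5 and 131, 254, 102, 70.9 and 137 CPM in wild-type oil mice 1 to 5. Trem1-deficient mouse 1 and wild-type CCl4 mouse 1 nearly meet, and their order rests on the TMM factors. Their S100a4 counts were 1184 of 2590697 and 601 of 1912946 gene counts, a larger share in the Trem1-deficient mouse. The Trem1-deficient and oil groups overlap. The log2 fold change was -2.56 ± 0.42 in Trem1-deficient against wild-type CCl4 mice (SE; edgeR adjusted p = 0.000799; 5 of 5 mice below the mean of the other group). It was 2.93 ± 0.42 in wild-type CCl4 against oil mice (adjusted p = 6.51e-05). It was 0.36 ± 0.40 in Trem1-deficient CCl4 against oil mice (adjusted p = 1.00).

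S100a6, also called calcyclin, which binds the ubiquitin ligase adaptor Cacybp, moved in the same directions. It stood at 423, 345, 238, 90.9 and 80.8 CPM in Trem1-deficient CCl4 mice 1 to 5, against 521, 1010, 1612, 1591 and 1459 CPM in wild-type CCl4 mice 1 to 5 and 113, 81.4, 100, 81.4 and 99.3 CPM in wild-type oil mice 1 to 5. No wild-type CCl4 mouse lay in the range of either other group by TMM-scaled CPM. Without TMM factors, Trem1-deficient mouse 1 (1284 of 2590697 gene counts) would exceed wild-type CCl4 mouse 1 (795 of 1912946). Trem1-deficient mice 1 to 3 lay above all oil mice while mice 4 and 5 did not. The oil group was the narrowest of any member in any group, with a highest value 1.39-fold above the lowest. The log2 fold change was -2.39 ± 0.39 in Trem1-deficient against wild-type CCl4 mice (SE; edgeR adjusted p = 0.000799) and 3.70 ± 0.42 in wild-type CCl4 against oil mice (adjusted p = 1.21e-06). Between Trem1-deficient CCl4 and oil mice it was 1.31 ± 0.38 (adjusted p = 0.293; unadjusted p = 0.00179). By TMM-scaled CPM, S100a4 and S100a6 were the 2 members without overlap between the CCl4 groups, and also between wild-type CCl4 and oil. Of all genes tested, 5.54% and 6.58% did not overlap in these comparisons.

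Both genes kept their calls within the index series. With only Trem1-deficient mice 3 to 5 and the wild-type CCl4 mice, which share a series, the log2 fold change was -3.13 (edgeR adjusted p = 0.00122) for S100a4 and -3.16 (adjusted p = 0.00135) for S100a6. With the series as a second term, estimated from the Trem1-deficient mice alone, wild-type CCl4 exceeded oil by 4.09 (adjusted p = 0.000939) for S100a4 and 5.19 (adjusted p = 5.80e-06) for S100a6. With only Trem1-deficient mice 1 and 2 and the oil mice, S100a6 was higher by 2.03 (adjusted p = 0.00726), a call that the pooled fit did not make. The gene most like S100a6 within groups was Xist (r = 0.87), followed by the protease gene Napsa (0.87) and Smap2 (0.83); for S100a4 they were Slc16a3 (0.88), a lactate exporter, the myeloid kinase gene Fgr (0.85) and S100a11 (0.85). The part of the series in the S100a6 levels among Trem1-deficient mice was not tested. Of 4 markers of bile duct cells 1 was tested, and it was higher in wild-type mice after CCl4 than after oil and not called between the CCl4 groups. The 4 summed to 6.34 to 34.6 CPM in Trem1-deficient CCl4, 31.0 to 219 CPM in wild-type CCl4 and 0 to 10.2 CPM in wild-type oil libraries, with Krt7 at 0 in all. Their part in the S100a4 and S100a6 levels was not tested. Within groups S100a4 had r of 0.65, 0.49, -0.56 and 0.10 with the neutrophil, monocyte, Kupffer and hepatocyte marker sums. S100a6 had 0.49, -0.05, -0.31 and -0.47 with the same sums. The part of these cells in both genes' levels was not tested either.

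**Figure D3:**
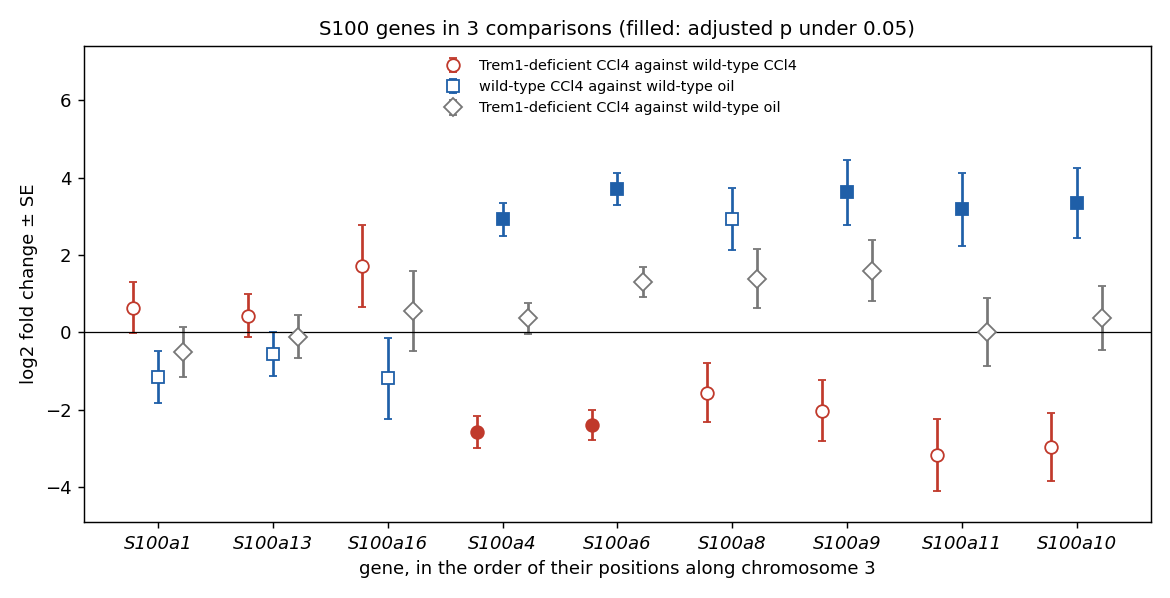
Log2 fold changes with standard errors for the 8 members and S100a16, in the order of the genes along chromosome 3, for Trem1-deficient CCl4 against wild-type CCl4 (red circles), wild-type CCl4 against wild-type oil (blue squares) and Trem1-deficient CCl4 against wild-type oil (grey diamonds). Filled symbols passed an adjusted p of 0.05 in edgeR. The 6 genes from S100a4 to S100a10 lie below 0 in the first and above 0 in the second comparison, and S100a1, S100a13 and S100a16 have the opposite signs without passing the test.

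S100a10 and S100a11 are the annexin partners of the family; S100a10, which has lost the ability to bind calcium, holds annexin A2 (Anxa2) at membranes, and S100a11 binds annexin A1 (Anxa1). S100a10 stood at 38.5, 39.7, 35.1, 45.0 and 122 CPM in Trem1-deficient CCl4 mice 1 to 5, against 68.8, 316, 219, 703 and 882 CPM in wild-type CCl4 mice 1 to 5 and 2.78, 154, 21.1, 11.4 and 29.2 CPM in wild-type oil mice 1 to 5. S100a11 stood at 26.7, 12.4, 8.997, 1.61 and 1.15 CPM in Trem1-deficient CCl4 mice, against 22.3, 138, 143, 104 and 57.3 CPM in wild-type CCl4 mice and 6.48, 25.9, 2.11, 0.946 and 16.0 CPM in wild-type oil mice. Wild-type CCl4 mouse 1 was the lowest of its group for both genes and the only one of its group to lie inside the range of another. This mouse also had the highest Kupffer (20920 CPM) and the lowest neutrophil (382 CPM) and hepatocyte (13450 CPM) marker sums of its group. The part of this in its S100 levels was not tested. The S100a11 values of Trem1-deficient mice 4 and 5 and of oil mice 3 and 4 rest on 1 to 3 counts each and are at the limit of the depth.

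Trem1-deficient CCl4 mice had log2 fold changes of -2.97 ± 0.87 for S100a10 (SE; edgeR adjusted p = 0.0965) and -3.16 ± 0.93 for S100a11 (adjusted p = 0.0688) against wild-type CCl4 mice, the largest in size among the members, and neither passed. Both passed in edgeR without wild-type CCl4 mouse 1, at -3.24 (adjusted p = 0.0337) and -3.41 (adjusted p = 0.0341). Within the index series they were -2.68 (adjusted p = 0.0975) and -4.48 (adjusted p = 0.0544). In wild-type CCl4 against oil mice S100a10 was higher by 3.34 ± 0.90 (edgeR adjusted p = 0.0428) and S100a11 by 3.18 ± 0.94 (adjusted p = 0.0448). S100a10 lost that call without wild-type CCl4 mouse 2, 3, 4 or 5 or oil mouse 3, 4 or 5, at adjusted p of 0.0583 to 0.117 and log2 fold changes of 2.88 to 3.51. S100a11 lost it without wild-type CCl4 mouse 2, 3 or 4 or oil mouse 1, 3, 4 or 5, at adjusted p of 0.0705 to 0.114 and log2 fold changes of 2.88 to 3.41. With the index series as a second term the log2 fold change was 2.56 for S100a10 (edgeR adjusted p = 0.833), 5.43 for S100a11 (adjusted p = 0.161) and 4.65 for S100a9 (adjusted p = 0.279), larger than without the term for S100a11 and S100a9, and S100a4 and S100a6 were the 2 members still called there.

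The 2 annexin partners differed in the genes they most resembled. Within groups S100a11 was most like S100a8 (r = 0.91), the adhesion-associated gene Emb (0.88) and Slc16a3 (0.86). S100a10 was most like the translation factor gene Eef1a1 (0.89), Med17 (0.88) and the ribosomal protein gene Rpl13a (0.87), and its r with the other members was -0.03 to 0.41. Deviations of S100a11 had r = 0.78 with the neutrophil sum, and those of S100a10 had 0.36 with it, 0.60 with the monocyte and -0.75 with the Kupffer marker sum.

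S100a1, best known from calcium handling in muscle, and S100a13, which takes part in the export of Fgf1, passed in no comparison. S100a1 stood at 62.9, 73.4, 36.0, 33.0 and 60.0 CPM in Trem1-deficient CCl4 mice 1 to 5, against 44.5, 6.94, 41.4, 5.08 and 73.6 CPM in wild-type CCl4 mice 1 to 5 and 85.2, 101, 54.9, 44.5 and 92.3 CPM in wild-type oil mice 1 to 5. S100a13 ranged over 20.9 to 89.1 CPM in Trem1-deficient CCl4, 34.1 to 76.7 CPM in wild-type CCl4 and 37.3 to 155 CPM in wild-type oil mice, so all 3 groups overlapped for both genes. Log2 fold changes in Trem1-deficient against wild-type CCl4 mice were 0.64 ± 0.66 for S100a1 (SE; edgeR adjusted p = 0.712) and 0.44 ± 0.56 for S100a13 (adjusted p = 0.786), and within the index series 0.34 (adjusted p = 0.996) and 0.38 (adjusted p = 0.992). In wild-type CCl4 against oil mice they were -1.15 ± 0.67 (adjusted p = 0.372) and -0.55 ± 0.57 (adjusted p = 0.671). Wild-type CCl4 mice 2 and 4, with the lowest S100a1, were among the 3 mice with the highest S100a8. Mouse 3 of that group was also among them and had S100a1 at 41.4 CPM. Within groups the deviations of S100a8 and S100a1 had r = -0.22 over 15 mice. Although S100a1 and S100a13 start 43 bases apart, their deviations within groups had r = -0.06. Within groups S100a1 was most like Leng1, Sdccag8 and Tsc22d1 (r = 0.91 each), and S100a13 was most like Dap3 (0.88), Foxo1 (0.85) and Rnf166 (0.83). These are the highest values out of 5931 genes, and they are similar in size to those given for the other members.

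The order of mean levels differed between groups. A 3' tag library gives reads from the end of a transcript, so CPM was compared between genes without a correction for length. In Trem1-deficient CCl4 mice the order was S100a8 (766 ± 563 CPM, SD, n = 5), S100a9 (574 ± 365), S100a6 (235 ± 152), S100a4 (178 ± 122), S100a13 (67.7 ± 27.3), S100a10 (56.0 ± 36.9), S100a1 (53.1 ± 17.7) and S100a11 (10.2 ± 10.4). In wild-type CCl4 mice it was S100a9 (2327 ± 1875 CPM), S100a8 (2250 ± 1559), S100a6 (1238 ± 469), S100a4 (1058 ± 450), S100a10 (438 ± 342), S100a11 (92.9 ± 52.2), S100a13 (49.9 ± 17.7) and S100a1 (34.3 ± 28.7). In wild-type oil mice it was S100a8 (294 ± 241 CPM), S100a9 (190 ± 132), S100a4 (139 ± 69.5), S100a6 (95.0 ± 13.6), S100a1 (75.6 ± 24.6), S100a13 (73.2 ± 47.0), S100a10 (43.7 ± 62.6) and S100a11 (10.3 ± 10.6). Neighbours in these orders differed by more than the larger SD of the pair only between S100a1 and S100a11 in Trem1-deficient CCl4, and between S100a4 and S100a10 and between S100a10 and S100a11 in wild-type CCl4 mice.

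Of the 9 family rows outside the members only S100a16 was abundant enough to be tested. Its mean was 37.1 ± 19.7 CPM in Trem1-deficient CCl4, 10.96 ± 12.2 CPM in wild-type CCl4 and 25.5 ± 21.1 CPM in wild-type oil mice (SD, n = 5 each), with 0 counts in wild-type CCl4 mouse 5 and oil mouse 1. Its log2 fold changes in the 3 comparisons were 1.73 ± 1.06, -1.18 ± 1.05 and 0.54 ± 1.03, with edgeR adjusted p of 0.455, 0.611 and 1.00. S100a2, S100a5 and S100z had 0 counts in every library, and the other 5 rows had counts in at most 5 libraries. S100a3 and S100a7a each had 20 counts, all in wild-type CCl4 mouse 2.

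Among the intracellular partners, 6 of 7 listed genes were tested (Anxa1, Anxa2, Cacybp, Ahnak, Myh9 and Fgf1). In Trem1-deficient against wild-type CCl4 mice 2 of the 6 were lower, in wild-type CCl4 against oil 1 was higher, and in Trem1-deficient CCl4 against oil 0 passed. Cacybp had the opposite signs, with 1.43 ± 0.87 and -1.06 ± 0.87 in the first 2 comparisons (SE, edgeR adjusted p = 0.452 and 0.569). Fgf1 had -0.77 ± 1.31 and 0.71 ± 1.32 (adjusted p = 0.846 and 0.843). Ahnak, a giant scaffold protein that binds the S100a10 and Anxa2 complex, stood at 138, 77.1, 94.3, 80.4 and 39.3 CPM in Trem1-deficient CCl4 mice, against 236, 358, 387, 351 and 346 CPM in wild-type CCl4 mice and 124, 354, 97.8, 88.9 and 89.5 CPM in wild-type oil mice. The CCl4 groups did not overlap, and oil mouse 2 lay among the wild-type CCl4 mice. Ahnak had a log2 fold change of -1.97 ± 0.42 between the CCl4 groups (SE; edgeR adjusted p = 0.00798), and -2.22 (adjusted p = 0.0346) with Trem1-deficient mice 3 to 5 alone. Myh9, the myosin heavy chain bound by S100a4, averaged 395 CPM in Trem1-deficient and 865 CPM in wild-type CCl4 mice, and had a log2 fold change of -1.13 ± 0.27 (edgeR adjusted p = 0.0236). That call was lost, at adjusted p of 0.0528 to 0.0975 and log2 fold changes of -1.16 to -0.94, without Trem1-deficient mouse 1, 2, 3 or 4 or wild-type CCl4 mouse 3 or 4, and within the index series (-1.21, adjusted p = 0.227).

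Anxa2 stood at 391, 345, 291, 158 and 139 CPM in Trem1-deficient CCl4 mice, against 305, 389, 512, 764 and 446 CPM in wild-type CCl4 mice and 90.7, 202, 114, 143 and 65.0 CPM in wild-type oil mice. Every wild-type CCl4 mouse lay above every oil mouse, and the Trem1-deficient mice overlapped both. Anxa2 rose in wild-type CCl4 against oil mice by 1.98 ± 0.37 (SE; edgeR adjusted p = 0.00112), and between the CCl4 groups it had -0.87 ± 0.36 (adjusted p = 0.231). Anxa1 averaged 5.33 CPM in Trem1-deficient CCl4, 32.1 CPM in wild-type CCl4 and 3.37 CPM in wild-type oil mice without passing in edgeR (adjusted p = 0.243 between the CCl4 groups and 0.0982 for wild-type CCl4 against oil); DESeq2 called both, at adjusted p of 0.0170 and 0.00196.

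Of 6 receptors and co-receptors listed for extracellular S100 proteins, 5 were tested (Tlr4, Ly96, Cd14, Bsg and Cd36), and 0 passed in any of the 3 comparisons. Cd14, the co-receptor of Toll-like receptor 4, had the smallest p between the CCl4 groups: it averaged 228 CPM in Trem1-deficient and 409 CPM in wild-type CCl4 mice, with a log2 fold change of -0.84 ± 0.32 (SE; edgeR adjusted p = 0.190; unadjusted p = 0.0136). Between the same groups the log2 fold change was 1.27 ± 0.68 for Cd36, 0.65 ± 1.13 for Ly96 and 0.59 ± 0.97 for Tlr4. For Bsg it was -0.01 ± 0.39. Tlr4 averaged 16.8 CPM in Trem1-deficient CCl4, 11.1 CPM in wild-type CCl4 and 22.8 CPM in wild-type oil mice. Ager, the receptor for advanced glycation end products, did not pass the filter on low counts.

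**Figure D4:**
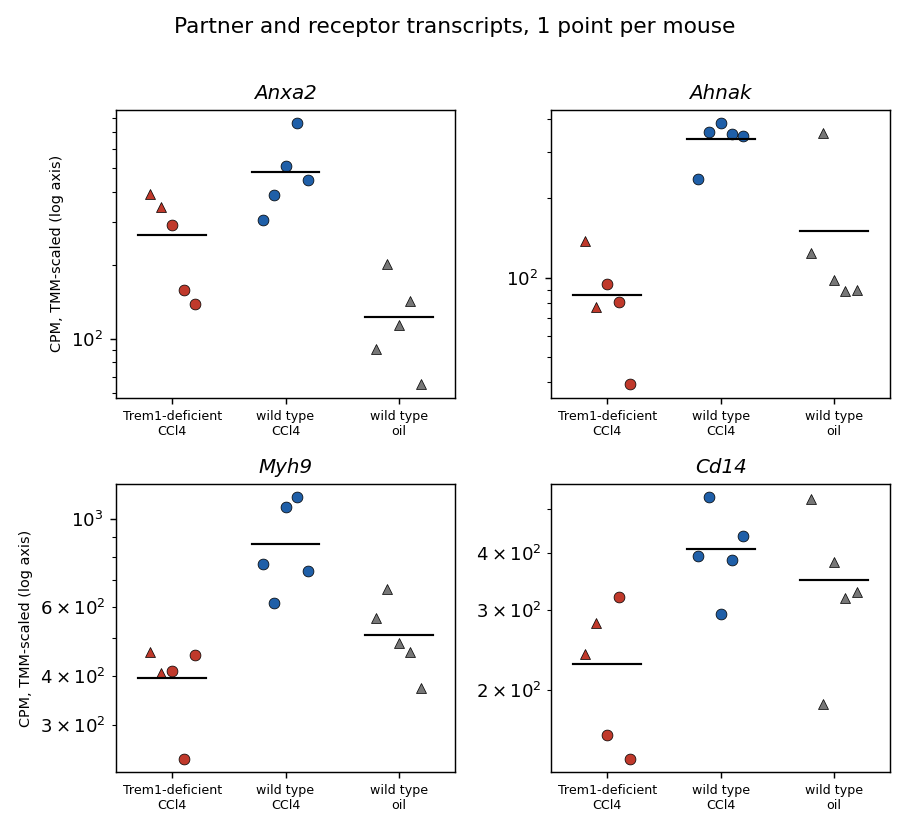
Levels of Anxa2, Ahnak, Myh9 and Cd14 in every mouse, in TMM-scaled CPM on log axes, for Trem1-deficient CCl4, wild-type CCl4 and wild-type oil mice from left to right; bars are group means (n = 5), triangles the index series with high Xist. The CCl4 groups do not overlap for Ahnak and Myh9, and wild-type CCl4 and oil mice do not overlap for Anxa2.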

How the data were processed

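RNA of Kupffer cell preparations was turned into QuantSeq 3' tag libraries, per the labels' protocols. The authors deposited 1 table of raw read counts per gene, with 1 column for each of 15 mice; the labels list 60 entries, 4 lanes per mouse, and the mouse was the replicate (5 per group). The submitters' processing notes name Trimmomatic, STAR 2.5.1a, Partek 6.6 and mm10; annotation and strand setting of the counting are both not given in the sources used here. Library sizes and tests leave out the 4 tally rows; genes took 12.6 to 28.8% of reads. Tests used edgeR 4.0.16 under R 4.3.3 (TMM, filterByExpr, robust quasi-likelihood F-test, 1 fit of 3 groups, 12 residual degrees of freedom), with Benjamini-Hochberg adjustment over 9001 genes; the biological coefficient of variation was 0.888. At these depths 3 counts stood for 0.988 to 4.09 CPM, and counting error is the only error such limits cover. Each SE of a log2 fold change is an approximation, the size of the change divided by the square root of the test's F. The code was tested on simulated counts. DESeq2 1.42.0, other scalings, no filter, a replicate block, index series and omission of each mouse were alternatives. No libraries of a group were repeats (chi-square over degrees of freedom at least 10.2). Promoter windows are RefSeq's, positions GENCODE's.

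The members and the lists were chosen with earlier results of these data known. Named were all members, tested S100 rows, tested partners and receptors, and the 3 genes most like each member.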

Additional observations from a re-analysis of the deposited data

Results flagged for a closer look

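In 27 groups of 5 values (8 members and the S100a9 to S100a8 ratio in 3 groups), 4 held a mouse set far apart. Its gap to the nearest other was over 0.71 of the group's range. That cutoff flags about 1 in 20 groups only where values are normally distributed and independent. The levels here are unlogged CPM of genes that share mice, so the 4 flags cannot be set against that rate. S100a4 was high in Trem1-deficient CCl4 mouse 1 (389.83 CPM), the mouse of its group with the highest S100a8, S100a9, S100a6 and S100a11 as well. S100a10 was high in Trem1-deficient CCl4 mouse 5 (121.819 CPM), which had the lowest S100a8, S100a9, S100a4, S100a6 and S100a11 of its group. S100a10 (154.213 CPM) and S100a13 (155.447 CPM) were both high in wild-type oil mouse 2, which also had the highest S100a8, S100a9, S100a4 and S100a11 of the oil mice. That library had the lowest Kupffer marker sum of the oil mice (31685 CPM). Its neutrophil (714 CPM), monocyte (1186 CPM), hepatocyte (11388 CPM) and sinusoidal endothelium (3110 CPM) sums were the highest of the group. The part of this cell mix in its S100 levels was not tested.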

How the results depend on the processing

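S100a4 and S100a6 kept direction and call in the first 2 comparisons under every alternative run. Their lack of overlap between the CCl4 groups did not hold by library total. With DESeq2 5 members were called lower in Trem1-deficient than in wild-type CCl4 mice (S100a9 at adjusted p = 0.0347, S100a10 at 0.00444 and S100a11 at 0.00537 beside S100a4 and S100a6). There 441 of all 24411 genes were called lower. The members called in wild-type CCl4 against oil were 6 with DESeq2 and with RLE factors, and 2 with the index series as a term. All were higher, where 664 of 24411, 296 of 9001 and 25 of 9001 genes were higher. In Trem1-deficient CCl4 against oil 1 member, S100a6, was called higher without the filter, with the index term and within the series. In these fits 44 of 16587, 6 of 9001 and 9 of 9773 genes were higher. Leaving out each mouse in turn gave 2 to 4, 2 to 6 and 0 to 0 members called in the 3 comparisons. It gave 88 to 508, 302 to 759 and 12 to 29 genes called in all, out of 9256 to 9605 tested. The full fit gave 185, 462 and 21 out of 9001. All genes called were 563, 813 and 73 of 16587 without the filter, and 660, 1084 and 75 of 24411 with DESeq2. With the index term they were 77, 37 and 11 of 9001. Within the series 57 of 8729 were called between the CCl4 groups. Scaling by library total gave 310 genes between the CCl4 groups, 215 higher and 95 lower (70 and 115 with TMM), and 215 higher and 315 lower in wild-type CCl4 against oil (274 and 188 with TMM); it moved the median of all genes to 0.27 and -0.14, and the members' medians were then -1.91 and 2.94. The cause of these changes was not tested.

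Mouse numbers did not pair the samples (same-number deviations between groups had r of -0.06 to 0.04). With mouse number as a replicate block 2, 3 and 0 members were called, and 158, 365 and 21 genes in all; in wild-type CCl4 against oil S100a9 (log2 fold change 3.40, adjusted p = 0.160) and S100a11 (3.62, adjusted p = 0.0536) lost the call with folds close to those of the full fit.

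Signs turned only among uncalled values. In Trem1-deficient CCl4 against oil these were S100a10 (-0.14 with the index term, -0.13 within the series), S100a11 (-0.032 with RLE, -0.038 with the replicate block and -0.036 with DESeq2) and S100a13 (0.055 by library total, 0.00043 with the block and 0.018 within the series). S100a16 turned to 0.11 in wild-type CCl4 against oil with the index term. Without 1 mouse, S100a10 ran from -0.13 to 1.75, S100a11 from -0.71 to 0.65, S100a13 from -0.27 to 0.36 and S100a4 from -0.14 to 0.70 in Trem1-deficient CCl4 against oil. Depth limits S100a11, with 1 count in its lowest library. Anxa1, Anxa2, Ahnak, Myh9 and Cd14 were added to the alternatives after the data were seen.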
